A study of Mus musculus with 6 samples.

Results

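The genes described here encode the proteins that make, bind and break down retinoic acid, and 9 of them were looked up by symbol among the 41053 gene names of the count files: Rdh10, Dhrs3, Aldh1a1, Aldh1a2, Stra6, Crabp1, Crabp2, Cyp26a1 and Cyp26b1. All 9 were found, each had at least 2 counts in all 6 libraries, and 8 passed the filter on low counts (Cyp26b1 did not). The RNA came from cultured spermatogonial stem cells of adult mice, the germline stem cells of the testis. Cells had been electroporated with a plasmid carrying a green fluorescent reporter, without a guide RNA (3 lines, wild type) or with a guide RNA against the receptor tyrosine kinase gene Ephb2 (3 lines, Ephb2-KO), and fluorescent cells were sorted, subcloned and sequenced. All 6 lines had therefore received the reporter plasmid and been through the sort, each line is a subclone, and nothing in the labels says that lines of a group came from separate animals, so p-values measure the spread between these lines. Lines numbered 1 and 2 in each group were at passage 20 and the line numbered 3 in each group was at passage 18.

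Retinoid signalling begins with vitamin A, retinol, which the membrane receptor encoded by Stra6 can bring into cells. Retinol is oxidised to retinaldehyde, a reversible step that Rdh10 catalyses forwards and Dhrs3 backwards, and retinaldehyde is oxidised irreversibly to retinoic acid by the Aldh1a enzymes. Crabp1 and Crabp2 encode proteins that carry retinoic acid in the cytoplasm, Cyp26a1 and Cyp26b1 encode the enzymes that break it down, and the acid acts through nuclear receptors on target genes. In the testis retinoic acid drives spermatogonia to differentiate and enter meiosis, and Cyp26a1 and Dhrs3 are among the genes that the acid itself induces in many cell types.

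Cyp26a1 carries a well-known binding element for retinoic acid receptors beside its transcription start, and its sequence is shown because Cyp26a1 had the largest fitted group difference of the 8 genes in size. The window of the RefSeq start on the plus strand of GRCm38.p6, chr19:37697558-37697857, holds 250 bases before the start and 50 from it, and the capitals mark the pair of receptor core motifs found:

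Cyp26a1 promoter: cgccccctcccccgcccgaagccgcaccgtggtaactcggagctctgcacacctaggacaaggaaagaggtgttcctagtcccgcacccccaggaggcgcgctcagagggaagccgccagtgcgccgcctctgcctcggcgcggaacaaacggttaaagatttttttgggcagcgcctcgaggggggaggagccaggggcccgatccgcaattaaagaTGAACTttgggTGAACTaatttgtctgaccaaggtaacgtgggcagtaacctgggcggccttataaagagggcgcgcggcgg

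The search covered the receptor core motifs AGGTCA and AGTTCA and GGGTCA and GGTTCA on both strands, as direct repeats spaced by 1, 2 or 5 bases (DR1, DR2 and DR5), and a core motif of one repeat could also serve another. The Cyp26a1 match was a DR5 read on the minus strand, from position -32 to -16 relative to the start. A DR5 by this definition occurred in 32 of 32851 promoter windows of 300 bases (0.0974%), a DR2 in 0.268% and a DR1 in 0.222%, whereas a single core motif occurred in 43.7%. RefSeq windows were found for 7 of the 9 genes (13 windows), and in the other 12 windows, those of Cyp26b1, Crabp1, Dhrs3, Aldh1a1, Aldh1a2 and Stra6, no such repeat was present. A match describes these letters only.

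Total counts ranged from 21772404 to 34047758 per library, and 3 counts corresponded to between 0.0803 and 0.147 CPM (counts relative to the effective library size), for counting error only. Transcript of the targeted gene, Ephb2, was not called between the groups (log2 fold change 0.18, SE 0.50, edgeR), and it was lower in the Ephb2-KO line of pair 2 and higher in that of pairs 1 and 3. It measured 21.3, 27.1 and 10.8 CPM in wild-type lines 1, 2 and 3 and 37.1, 16.5 and 13.4 CPM in the lines labelled Ephb2-KO. Counts summed over exons cannot reveal small edits, so in what follows "Ephb2-KO" stands for the label of these lines only. Germ cell markers were present in every library (all 14 passed the low-count filter, Dazl at 696 CPM or more), but markers of fibroblasts and stroma were abundant too, at 0.530% to 2.77% of all counts over 18 genes. Of 12 Sertoli markers 9 passed the filter, with Sox9 at 16.5 to 41.8 CPM, Wt1 at 16.1 to 37.3 CPM and Gata4 at 9.08 to 19.3 CPM, while Fshr had 0 counts in all libraries and Amh at most 0.197 CPM. Of 11 Leydig and peritubular markers 5 passed, with Des at 10.1 to 29.2 CPM, while Hsd3b1 and Lhcgr had 0 counts in all libraries. Of 7 endothelial markers 5 passed (Pecam1 at 2.19 to 6.89 CPM, Tie1 at most 0.0900), and of 6 macrophage markers 3 passed (Cd68 at 5.26 to 20.1 CPM, Ptprc at most 0.246). In these bulk samples fewer cells of a type and less RNA per cell cannot be told apart.

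Measured per kilobase of exon, which allows genes to be compared, Crabp1 was the most abundant of the 9 on average, at 58.7 ± 12.7 CPM per kilobase (SD, n = 6), followed by Aldh1a1 at 44.3 ± 51.0. The wide spread of Aldh1a1 means that their order was reversed in both libraries of passage 18. Aldh1a2 followed at 7.24 ± 2.99 and Rdh10 at 2.77 ± 1.31 CPM per kilobase (SD, n = 6). Dhrs3 (1.05 ± 0.806), Crabp2 (0.894 ± 0.977) and Cyp26a1 (0.700 ± 0.727) did not differ beyond their spread over the 6 libraries. Stra6 at 0.112 ± 0.0390 and Cyp26b1 at 0.0734 ± 0.0366 CPM per kilobase were lowest and overlapped each other. Among the 9 genes, average mRNA was thus highest for the carrier gene Crabp1 and for the acid-forming genes Aldh1a1 and Aldh1a2. It was low within the set for the retinol receptor and both degrading enzymes. The Aldh1a1 mean rests largely on passage 18, at 113 and 107 CPM per kilobase in wild-type and Ephb2-KO line 3. The passage 20 libraries had 7.58 to 15.1.

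**Figure D1:**
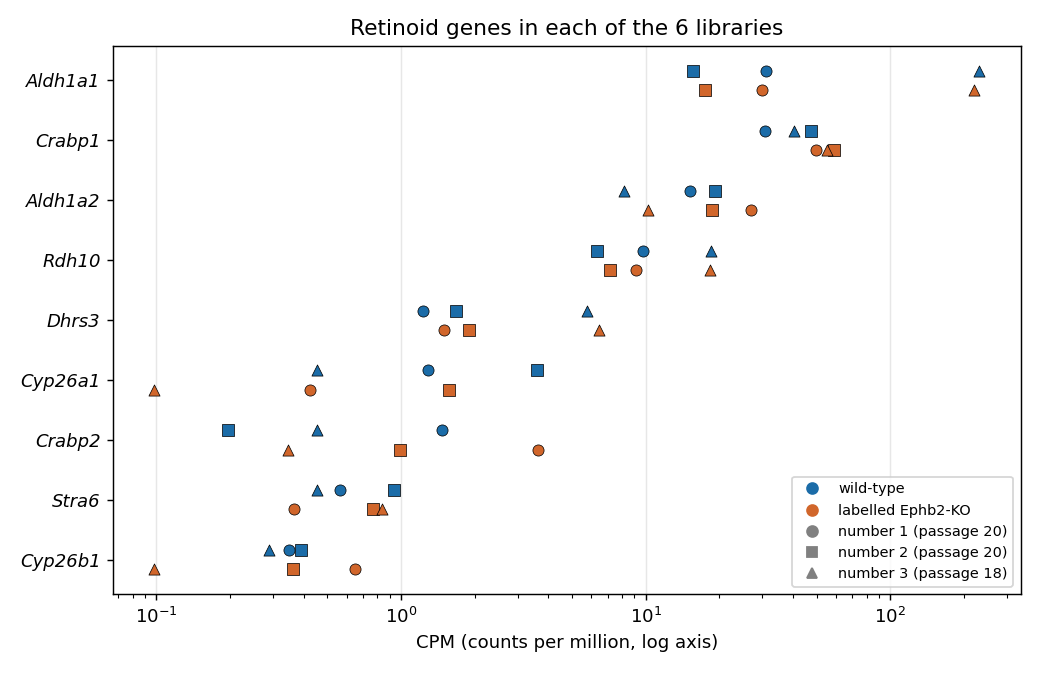
CPM of the 9 genes in each library on a log axis, with 1 point per library, colour for the group and marker shape for the replicate number; genes are ordered by mean CPM. Aldh1a1, Rdh10 and Dhrs3 are highest in the 2 passage 18 libraries (triangles), and for Crabp1 alone the points of the groups do not overlap.

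Most of the variation in these genes lay between replicate numbers and not between the groups. In log2 CPM over the 6 libraries, replicate number took up 99.9% of the sum of squares of Aldh1a1, 99.1% of that of Rdh10 and 98.8% of that of Dhrs3, against a median of 82.6% over the 15263 genes tested. The share was 80.5% for Aldh1a2, 75.2% for Cyp26a1, 70.8% for Crabp2, 61.5% for Cyp26b1 and 56.9% for Stra6. Crabp1 was the exception, with 33.5% for number and 60.2% for group, where the median over all genes was 3.92%. A test of any difference between numbers called 6 of the 8 tested genes (edgeR quasi-likelihood test with group in the model), all but Crabp1 and Stra6, against 54.2% of all genes tested. Same-numbered lines may share a parent culture, in which case they are not independent and these p-values are too small.

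Rdh10, Dhrs3, Aldh1a1 and Aldh1a2 differed between the passages. In the comparison of the 2 libraries at passage 18 with the 4 at passage 20, 3 genes rose and 1 fell among the 8 tested, where 25.8% of all genes were called (15.4% higher, 10.4% lower). Passage 18 and replicate number 3 are the same libraries here and cannot be told apart. The fit takes the 6 libraries as independent, but same-numbered libraries deviate together, so by number this is 1 pair against 2, passage itself is not replicated, and the passage p-values below are too small to that extent. The median size of the log2 difference was 1.47 over the 8 genes and 0.52 over all genes tested. Leaving out any one passage 20 library left 4 or 5 genes called. Leaving out wild-type line 3 or Ephb2-KO line 3 left 1, Aldh1a1, and passage 18 then has 1 library that is assumed to vary like the rest (284 and 325 genes called in all, against 3935).

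Aldh1a1 encodes a cytosolic retinaldehyde dehydrogenase and lies on chromosome 19 (20601961 to 20643462, GRCm38, plus strand). It stood at 31.0 and 15.6 CPM in wild-type lines 1 and 2 and at 30.02 and 17.5 CPM in the lines labelled Ephb2-KO with the same numbers, but at 231 and 221 CPM in the wild-type and Ephb2-KO lines numbered 3. Both libraries of passage 18 were far above all others, and within each number the groups were close. Aldh1a1 rose at passage 18 by a log2 difference of 3.26 (SE 0.30, adjusted p = 0.000588 by the edgeR quasi-likelihood test), a fold of 9.58 with a 95% interval of 5.91 to 15.5. It was called in all 10 alternatives run, with an adjusted p of at most 0.0327. Aldh1a7, a close neighbour of Aldh1a1 on chromosome 19 with a similar sequence, rose with it (log2 difference 3.78, SE 0.31, adjusted p = 0.000430), and since reads mapping to several places were left out, reads of this pair may be undercounted or divided between them.

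Aldh1a2 encodes the related retinaldehyde dehydrogenase on chromosome 9 (71215789 to 71296243) and went the opposite way. It stood at 15.2 and 19.2 CPM in wild-type lines 1 and 2, 26.9 and 18.6 CPM in the Ephb2-KO lines 1 and 2, and 8.17 and 10.3 CPM in wild-type and Ephb2-KO line 3. The passage 18 libraries lay below all 4 others. Aldh1a2 fell by 1.11 on the log2 scale at passage 18 (SE 0.27, adjusted p = 0.0225, edgeR), a fold of 0.463 (95% interval 0.300 to 0.713), and its adjusted p was 0.262 without wild-type line 3 and 0.265 without Ephb2-KO line 3. As a result the ratio of Aldh1a1 to Aldh1a2 per kilobase of exon was 0.893 to 2.24 in the 4 libraries at passage 20, and 31.2 and 23.7 in the wild-type and Ephb2-KO libraries at passage 18. That the passages did not overlap in this ratio follows from the values of the single genes and adds no evidence to them.

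Rdh10 is the retinol dehydrogenase of the first oxidation (chromosome 1, 16105774 to 16133734). Its wild-type values for lines 1, 2 and 3 were 9.72, 6.35 and 18.5 CPM, and it stood at 9.13, 7.16 and 18.3 CPM in the Ephb2-KO lines. It rose at passage 18 by a log2 difference of 1.18 (SE 0.27, adjusted p = 0.0188, edgeR), and line 2 was lower than line 1 in both groups. Dhrs3, the reductase that returns retinaldehyde to retinol (chromosome 4, 144892827 to 144928209), gave wild-type values of 1.23, 1.69 and 5.78 CPM for lines 1, 2 and 3 and stood at 1.49, 1.89 and 6.43 CPM in the Ephb2-KO lines. It rose by a log2 difference of 1.96 at passage 18 (SE 0.34, adjusted p = 0.00730). The genes for both directions of this step were therefore higher in the same libraries, and Rdh10 exceeded Dhrs3 per kilobase of exon in every library, by 1.998-fold to 5.55-fold. Without wild-type line 3 the adjusted p was 0.277 for Rdh10 and 0.186 for Dhrs3, and without Ephb2-KO line 3 it was 0.242 and 0.161.

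The degrading enzyme Cyp26a1 (chromosome 19, 37697808 to 37701528) was lowest at passage 18, just short of the threshold. It had 48, 92 and 11 counts in wild-type lines 1, 2 and 3, or 1.29, 3.61 and 0.454 CPM, and 15, 35 and 2 counts in the Ephb2-KO lines, or 0.423, 1.58 and 0.0982 CPM. The log2 difference between passages was -2.70 (SE 0.84, adjusted p = 0.0516, edgeR), and its adjusted p was under 0.05 in only 4 of the 10 alternatives. The smallest, 0.000678 by edgeR, came from the fit without the low count filter, whose adjusted p-values were far smaller than those of the main fit. Wild-type line 3 and Ephb2-KO line 1 overlapped, so the passages were not separate. The passage values of the other genes were -1.75 (SE 1.01) for Crabp2, 0.04 (SE 0.21) for Crabp1 and -0.02 (SE 0.61) for Stra6, and none of these passed, with 95% intervals of the fold from 0.0584 to 1.51, 0.734 to 1.44 and 0.367 to 2.64.

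**Figure D2:**
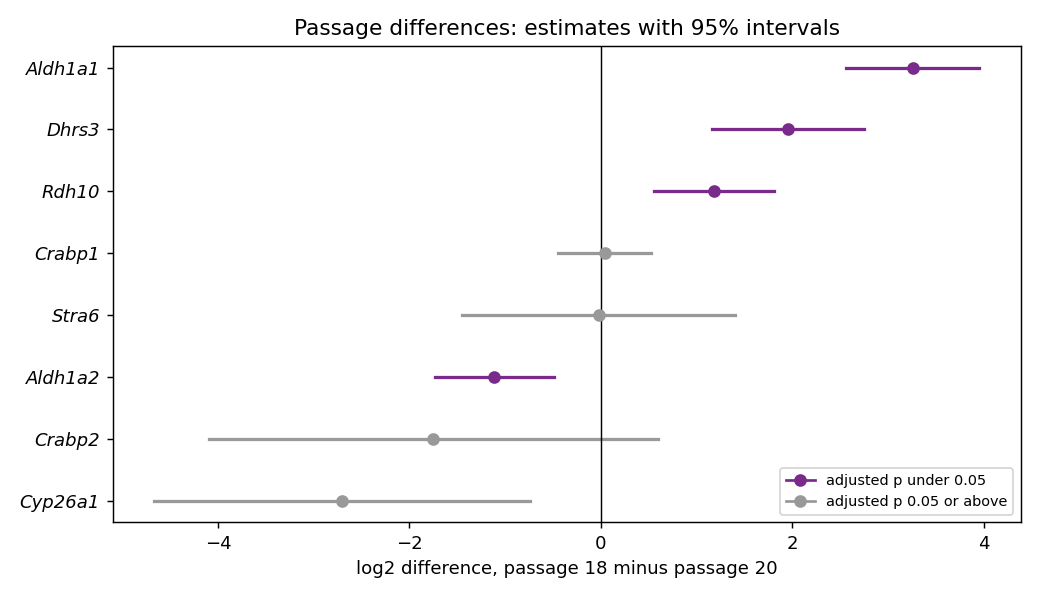
Log2 difference between passage 18 and passage 20 for the 8 tested genes, points for the edgeR estimate and lines for its 95% interval, purple where the adjusted p is under 0.05. Aldh1a1, Dhrs3 and Rdh10 lie above 0 and Aldh1a2 below it; the Cyp26a1 interval lies below 0, but its adjusted p over all genes was 0.0516.

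Fibroblast and germ cell markers moved with passage. Of the 18 fibroblast and stromal markers 14 rose and 0 fell at passage 18 (median log2 difference 2.13), against 15.4% higher and 10.4% lower over all genes, and they took 0.530% to 0.863% of counts at passage 20 against 2.40% and 2.77% in wild-type and Ephb2-KO line 3. Dcn, which encodes the matrix proteoglycan decorin, had a log2 difference of 3.15 (SE 0.17, adjusted p = 0.000192, edgeR), close to that of Aldh1a1, and the receptor gene Pdgfra had 2.34 (SE 0.14). Of the 14 germ cell markers 8 fell and 0 rose (median -0.78), from 0.344% to 0.413% of counts at passage 20 to 0.195% and 0.220% at passage 18. The RNA-binding protein gene Dazl had -0.75 (SE 0.19) and the transcription factor gene Zbtb16 -0.84 (SE 0.20). Of the 9 tested Sertoli markers 0 rose and 1 fell, Wt1 (-0.997, SE 0.19). Of 5 Leydig and peritubular markers tested 1 rose (Acta2, which smooth muscle expresses), of 5 endothelial markers 1 rose (Emcn) and of 3 macrophage markers 1 rose (Lyz2), with 0 lower in each list, where 15.4% of all genes were higher. The part of cell composition in the passage differences of the retinoid genes was not tested.

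**Figure D3:**
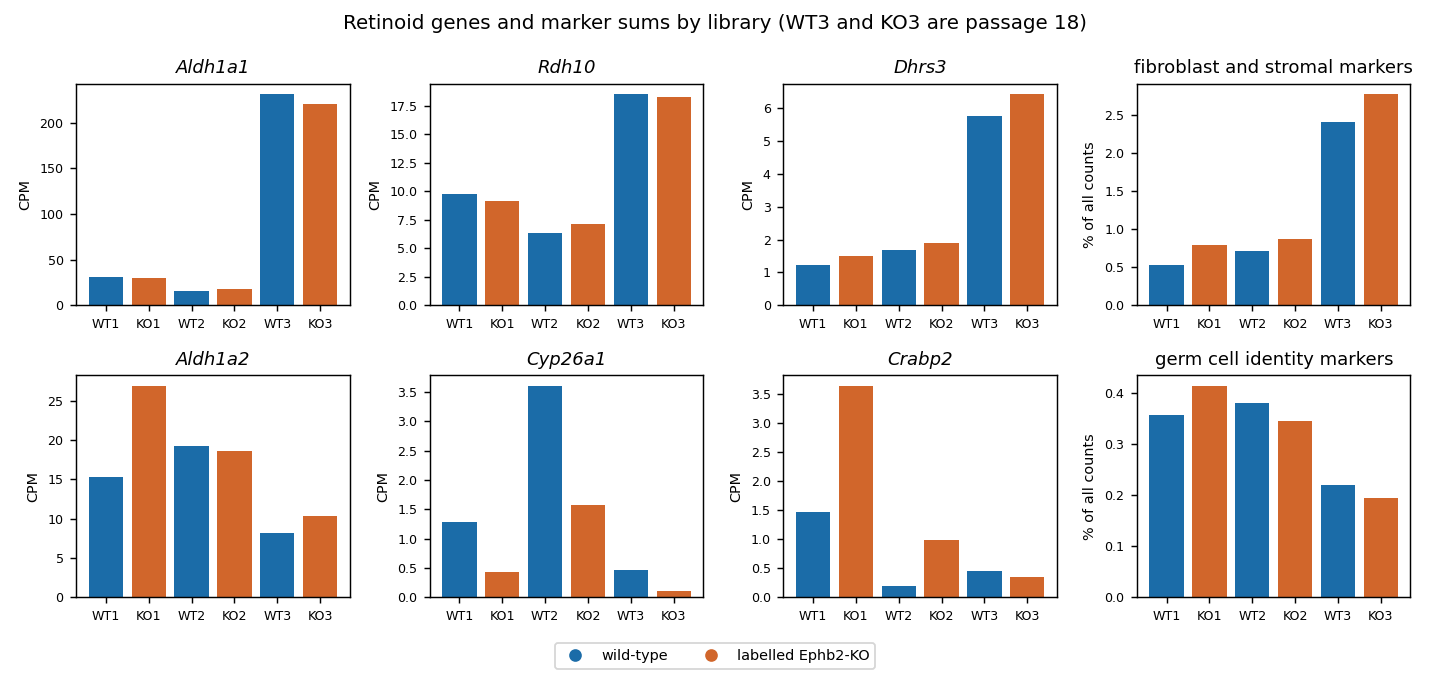
Bars of CPM for 6 retinoid genes, and of the percentage of all counts for the summed fibroblast and germ cell markers, in each library, with wild-type in blue and the lines labelled Ephb2-KO in orange. Aldh1a1, Rdh10, Dhrs3 and the fibroblast sum are highest in WT3 and KO3, the lines at passage 18, and Aldh1a2 and the germ cell sum are lowest there.

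Other genes of retinoid handling also differed between passages. Of 35 listed, 33 were in the files, 22 were tested, and 8 rose and 1 fell at passage 18 (median log2 difference 0.24, against -0.06 over all genes, of which 15.4% were higher and 10.4% lower). Cyp1b1, a cytochrome that can oxidise retinoids, had 2.99 (SE 0.22, adjusted p = 0.000269), the retinol dehydrogenase genes Adh1 and Adh7 had 2.77 (SE 0.24, adjusted p = 0.000476) and 3.21 (SE 0.33, adjusted p = 0.000852), all by edgeR. Adh1 stood at 8.97 to 15.3 CPM in the passage 20 libraries and 77.8 to 93.5 CPM in those of passage 18. The listed gene that fell was Retsat, the retinol saturase (-0.52, SE 0.15, adjusted p = 0.0411). Cyp26c1, the third degrading enzyme of its family, was at or under 0.0982 CPM in every library, and Lrat, which esterifies retinol for storage, at or under 0.0900 CPM. Aldh1a3, the remaining acid-forming dehydrogenase, reached at most 2.94 CPM and was not called between the passages (-0.98, SE 0.94).

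Among the retinoic acid receptors and their cofactors, passage 18 had 1 higher (Nrip1, 1.47, SE 0.27) and 2 lower (among them Ncoa3, -0.60, SE 0.18) of 12 tested (edgeR adjusted p = 0.00916 for Nrip1 and 0.0451 for Ncoa3). Of 16 tested retinoic acid target genes 7 rose and 4 fell, where 15.4% of all genes were higher and 10.4% lower. The homeobox genes Meis1 and Meis2 had 2.04 (SE 0.25) and 2.60 (SE 0.23), and Kit and Ret, both receptor genes expressed in spermatogonia, had -1.74 (SE 0.28) and -1.20 (SE 0.21). Of 9 tested genes listed for differentiating spermatogonia 3 fell, Kit, Uchl1 and Dnmt3b, and 0 rose, where 10.4% of all genes were lower. Uchl1 is not particular to differentiating cells, and 8 of the 14 germ cell markers fell in the same comparison.

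Between the groups, no retinoid gene passed the test. Fitted without the replicate number, edgeR called 0 of the 8 tested genes and 0% of the 15263 genes, with 32 genes at an unadjusted p under 0.05, and DESeq2 called 4 genes and 0 of the 8. Same-numbered libraries deviated together, and with the replicate number as a block the test also called 0 of the 8, against 4 genes in all (0.0262%). In the blocked fit 3 of the 8 genes had an unadjusted p under 0.05, where 6.47% of all genes did. These were Cyp26a1, Crabp1 and Crabp2, which are described next because their unadjusted p was lowest. The median log2 fold change was 0.09 over the 8 genes without the block and 0.11 with it, against 0.01 and 0.02 over all genes.

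Cyp26a1 was lower in the line labelled Ephb2-KO of every pair, with 15 counts against 48 in pair 1, 35 against 92 in pair 2 and 2 against 11 in pair 3. The ratio of CPM was 0.329 in pair 1 (95% exact interval for counting error 0.171 to 0.597), 0.437 in pair 2 (0.287 to 0.652) and 0.216 in pair 3 (0.0233 to 0.992). Across pairs the CPM ranges of the groups overlapped, since the wild-type lines alone spanned 0.454 to 3.61 CPM. The blocked log2 fold change was -1.50 (SE 0.42, unadjusted p = 0.00434, adjusted p = 0.741, edgeR) and the unblocked one -1.35 (SE 1.05). The adjusted p ranged from 0.282 to 1.0 over the alternatives, and the log2 fold change from -2.69 to -0.33, lower in each.

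Crabp1 was higher in the line labelled Ephb2-KO of every pair and was the only one of the 8 genes whose groups did not overlap, an arrangement that 2.39% of all tested genes had. Wild-type lines 1, 2 and 3 measured 30.8, 47.4 and 40.6 CPM, a mean of 39.6 ± 8.35 (SD, n = 3). The Ephb2-KO lines measured 49.6, 58.8 and 55.3 CPM, a mean of 54.6 ± 4.65 (SD, n = 3). The lowest Ephb2-KO library, number 1, lay just above the highest wild-type library, number 2. The blocked log2 fold change was 0.48 (SE 0.13, unadjusted p = 0.00338, adjusted p = 0.741, edgeR), a fold of 1.397 with a 95% interval of 1.15 to 1.70. An exact two-sided permutation test without the block gave p = 0.1, the smallest that 3 libraries against 3 allow. The adjusted p ranged from 0.195 to 1.0 over the alternatives.

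Crabp2, whose product delivers retinoic acid to its receptors, was not uniform across pairs. It had 55, 5 and 11 counts in wild-type lines 1, 2 and 3 (1.47, 0.196 and 0.454 CPM) and 129, 22 and 7 counts in the Ephb2-KO lines (3.64, 0.990 and 0.344 CPM). The ratio was 2.47 in pair 1 (95% exact interval 1.79 to 3.45), 5.06 in pair 2 (1.87 to 17.1) and 0.758 in pair 3 (0.249 to 2.14). The blocked log2 fold change of 1.13 (SE 0.50, unadjusted p = 0.0459, adjusted p = 0.741, edgeR) had an adjusted p of 0.629 to 1.0 over the alternatives. Without Ephb2-KO line 1, the highest library, the unblocked value went from 1.22 to -0.10, and without both lines of pair 1 the blocked value was 0.99.

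For the other 5 tested genes the pairs gave small or mixed differences. Dhrs3 was higher in all 3 pairs, by log2 values of 0.26, 0.16 and 0.15 in pairs 1, 2 and 3, so that 3 of the 8 genes kept 1 direction in all pairs, where 27.9% of all genes did. The blocked fold of Aldh1a1 was 1.01 with a 95% interval of 0.843 to 1.21, that of Rdh10 1.01 (0.772 to 1.33) and that of Dhrs3 1.15 (0.751 to 1.75). A doubling lay outside each of these blocked intervals, which borrow their spread from other genes and do not show equality. Without the block the intervals were 0.130 to 7.15 for Aldh1a1, 0.419 to 2.38 for Rdh10 and 0.302 to 4.22 for Dhrs3. A doubling lay inside each of those. Aldh1a2 was 0.81 higher in log2 in pair 1, -0.04 in pair 2 and 0.33 in pair 3, with a blocked fold of 1.29 (0.961 to 1.74). Stra6 lies on chromosome 9 (58063788 to 58153996). Its counts were 21, 24 and 11 for wild-type and 13, 17 and 17 for Ephb2-KO, and its blocked fold of 0.973 had an interval of 0.472 to 2.01. Cyp26b1 had 13, 10 and 7 counts in wild-type lines 1, 2 and 3 and 23, 8 and 2 counts in the Ephb2-KO lines. Its pooled ratio of 1.23 had a 95% exact counting interval of 0.726 to 2.08, so a difference was not detectable at this depth.

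**Figure D4:**
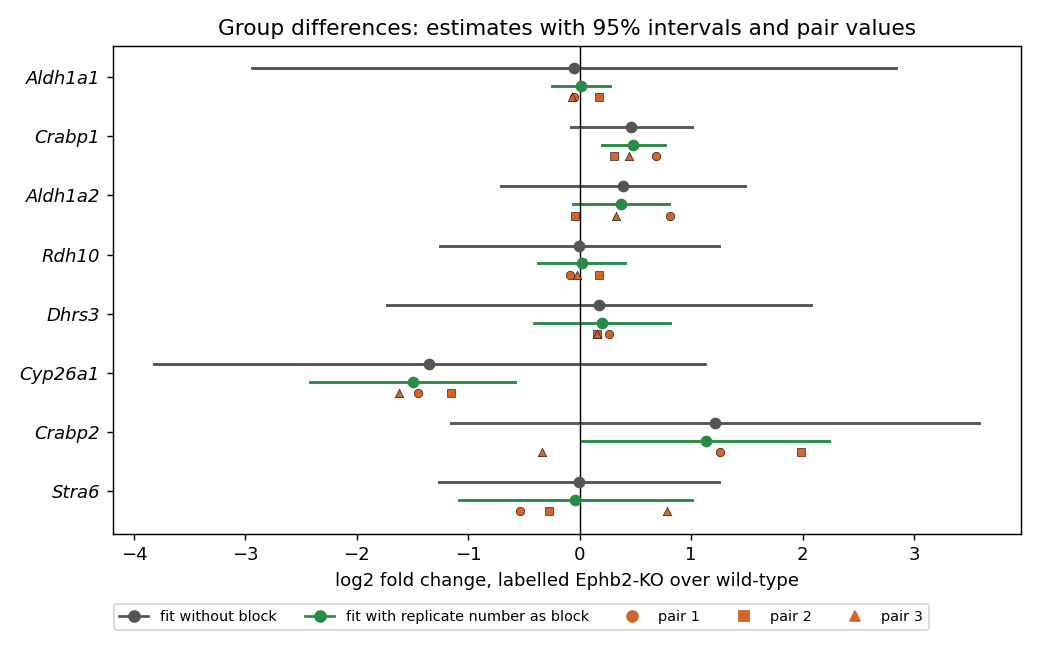
Log2 fold change between the lines labelled Ephb2-KO and wild-type lines for the 8 tested genes, as edgeR estimates with 95% intervals without the block (grey) and with it (green), and the 3 pair values (orange). The 3 Cyp26a1 pair values lie between -1.62 and -1.16 and the 3 Crabp1 values between 0.31 and 0.69. Those of Dhrs3 lie above 0, and those of Crabp2, Stra6, Rdh10, Aldh1a1 and Aldh1a2 lie on both sides of 0.

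Between the groups 0 of the 18 fibroblast and stromal markers passed, with or without the block. Their summed counts were higher in the Ephb2-KO line of all 3 pairs, with 0.530% against 0.791% of counts in pair 1, 0.705% against 0.863% in pair 2 and 2.40% against 2.77% in pair 3. The median log2 fold change of these markers was 0.31 without the block and 0.37 with it, against 0.01 and 0.02 over all genes tested. Single markers went the other way, as Lum was lower in pairs 1 and 3 and Thy1 in pairs 1 and 2. Aldh1a1, which was high in the same passage 18 lines as these markers, had small differences of mixed sign within pairs. Its log2 values were -0.05, 0.17 and -0.07 in pairs 1, 2 and 3, and its blocked fold was 1.01. The part of stromal content in the group values of Aldh1a1 was not tested. Summed germ cell markers were higher in the Ephb2-KO line of 1 pair. Their part in the group values of Cyp26a1, Crabp1 and Crabp2 was not tested. Among the other retinoid handling genes 0 of 22 passed between the groups. In the fit without the block their median log2 fold change was 0.01, with -0.02 (SE 0.29) for Adh5 and -0.28 (SE 0.30) for the retinol carrier gene Rbp4. In the same fit 0 of 12 receptors and cofactors passed, with 0.30 (SE 0.32) for Rxra and 0.08 (SE 0.18) for Rxrb. Of 16 targets 0 passed, with -0.07 (SE 0.36) for Rec8. Stra8, the retinoic acid target of meiotic entry, was chosen here after its values were seen. It stood at 11.8, 4.11 and 12.5 CPM in wild-type lines 1, 2 and 3 and at 28.1, 4.77 and 16.1 CPM in the Ephb2-KO lines. With the block its log2 fold change was 0.64 (unadjusted p = 0.0168, adjusted p = 0.741, edgeR). Cyp1b1, Rara and Rarg, picked in the same way, had blocked values of 0.36, 0.41 and 0.32. Their unadjusted p was 0.0128, 0.0243 and 0.0309 (adjusted p = 0.741 each, edgeR), where 6.47% of all genes were under 0.05.

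The genes whose pattern over the 6 libraries was most like each retinoid gene were described by Pearson's r of log2 CPM, over 6 libraries and with no test, among 11395 or 11396 genes of at least 5 CPM. Many genes share the passage pattern: 829 had r over 0.95 with Aldh1a1, 975 with Dhrs3, 720 with Rdh10 and 454 with Aldh1a2. Closest were Sdhaf1 and Tcta to Aldh1a1 (0.999 each), Brinp3 and Dse to Dhrs3 (0.9998 and 0.9996), Sumf1 and Rab5b to Rdh10 (0.9995 and 0.9991) and Ubac1 and Trim41 to Aldh1a2 (0.998 each). For the other genes with enough counts the numbers were 16 genes over 0.95 for Crabp1 (closest Gnb2, 0.999, and Lrrc58, 0.984), 46 for Cyp26a1 (closest Zfp593 and Tfrc, 0.984 each) and 0 for Crabp2 (closest Ovol1, 0.948, and Nhlrc1, 0.940).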

How the data were processed

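RNA of 6 lines was sequenced. Per the file headers, the deposited values are raw counts per gene, made by featureCounts 1.4.6-p4 on one alignment a library (strand setting 2, exons grouped by gene name, GENCODE vM3). Reads with several map positions or features were left out. The submitters' processing notes name STAR, FastQC and GRCm38.p3 without versions or settings. Promoter windows are from RefSeq (GRCm38.p6).

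For the tests, R 4.3.3 and edgeR 4.0.16 were used (filterByExpr, TMM, robust quasi-likelihood test, Benjamini-Hochberg over all 15263 tested genes, threshold 0.05), and log2 CPM had a prior count of 2. Models were group, number plus group, passage plus group, and a group by passage term, which called 0 genes (159 at an unadjusted p under 0.05). Alternatives were DESeq2 1.42.0, other scaling and filters, the replicate block and each library left out; matplotlib 3.10.9 drew the figures. The scripts were tested on simulated counts. There the share of false calls was above the nominal one in the group fit with and without the block, the passage fit and the number fit. Adjusted p-values near the threshold are therefore to be read with care. Only for the blocked group fit were same-numbered libraries simulated to deviate together. For the other fits the effect of such shared deviation was not measured. Deviations from group means correlated at 0.596, 0.736 and 0.850 for same-numbered libraries (numbers from the titles), so numbers were taken as pairs.

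Named beside the 9 genes were, per list, up to 4 genes past the threshold or else the 3 highest per exon length. Aldh1a3, Amh, Cyp26c1, Fshr, Gata4, Hsd3b1, Lhcgr, Lrat, Lum, Ptprc, Rara, Rarg, Retsat, Stra8, Thy1 and Tie1 were chosen after their values were seen. The 9 genes and all 10 lists were chosen with earlier results of these data known. Some genes that the rule names are not reported here.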

Additional observations from a re-analysis of the deposited data

Results flagged for a closer look

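Cyp26b1 at passage 20 was flagged because 1 of the 4 libraries stood apart. Ephb2-KO line 1 had 0.648 CPM (23 counts) and the others 0.348, 0.392 and 0.360 CPM, so that the gap to the nearest library was 0.854 of the whole range. Chance flags about 1 in 20 such groups, and 9 genes were looked at.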

How the results depend on the processing

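No retinoid gene was called between the groups under any of the 15 alternatives run. In 9 of the 15, all without the block, no gene at all was called. Those 9 therefore tell nothing about the retinoid genes in particular. Over all genes the count of calls went from 0 to 4 with the replicate block, 4 with DESeq2 and 18 with DESeq2 and the block; leaving out a pair under the block gave 56 without pair 1, 3 without pair 2 and 4 without pair 3. The block changed no call of the 8 genes, as the pairing left each above the threshold. Some values near 0 changed sign: with the block Rdh10 was 0.017 and Aldh1a1 0.012 (log2), with DESeq2 and the block 0.024 and 0.020, with RLE scaling Rdh10 0.0075 and Stra6 0.00013, and with DESeq2 Rdh10 0.0074. With the block, Rdh10 was 0.068 without pair 1 and 0.039 without pair 3, Aldh1a1 0.040 and 0.061, and Stra6 was 0.23 without pair 1 and 0.11 without pair 2.

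Leaving out one library, without the block, gave group values (log2) of -0.10 to 2.35 for Crabp2 and -0.22 to 0.35 for Stra6. The values were -0.77 to 1.16 for Dhrs3, -0.50 to 0.52 for Rdh10 and -1.96 to 1.94 for Aldh1a1. The ends for Dhrs3, Rdh10 and Aldh1a1 came from leaving out a line numbered 3, which leaves its group with no passage 18 library. These ends therefore mix the group with the passage difference. With the block and a whole pair left out, the values were 0.16 to 0.22 for Dhrs3, -0.054 to 0.068 for Rdh10 and -0.057 to 0.061 for Aldh1a1. None of these group values was called. For passage it gave 284 to 4187 calls over all genes and 1 to 5 among the 8, with Crabp1 at -0.085 to 0.18 and Stra6 at -0.71 to 0.58. Only Aldh1a1 stayed past the threshold without either passage 18 library. Without the low count filter, 6 of the 8 passed for passage and 5264 genes in all. That fit gave Aldh1a1 an adjusted p of 5.25e-57 against 0.000588 in the main fit (edgeR) on the same libraries. Its calls are therefore to be read with care. Of 196 values of the 8 genes under alternatives, 155 kept direction and side of the threshold, 30 changed sign (0 of them called at first), 6 lost and 5 gained the call. Low counts limit Cyp26b1, Stra6, Crabp2 and Cyp26a1.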
